A study of Mus musculus with 8 samples.

Results

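The genes described here are the cytosolic ribosomal protein genes of mouse brain tissue labelled central amygdala. They were chosen by symbol: every gene of the deposited table whose symbol starts with Rpl or Rps followed by a number, the stalk protein symbols Rplp0, Rplp1 and Rplp2, and Rpsa, without the kinases whose symbols start with Rps6k. This gave 91 of the 18983 genes in the table. Of these, 55 carry a large subunit symbol, 35 a small subunit symbol, and 1, Rps19bp1, encodes a protein that binds Rps19 and the deacetylase Sirt1 and is not part of the ribosome. The plain name of a ribosomal protein is carried by 77 of the 91, and the other 14 are paralogs, retrocopies and Rps19bp1. The rule uses no measured value, but the members were chosen with earlier results of these data known.

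The study compared 4 libraries from mice on a high fat diet with 4 libraries from mice on normal chow. All mice were of the 129SV strain and 7 months old, and each diet had been given for 20 weeks, per the labels. Poly(A) RNA of flash frozen tissue was sequenced as short single reads. The titles number the libraries 1, 2, 5 and 8 within each diet, and libraries are called here by diet and number (high fat 1, chow 1). Values per library are always given in the order 1, 2, 5, 8. Whether each library came from its own animal is not stated, so a p-value here sets a difference against the spread of 4 libraries, and that spread may be technical.

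The cytosolic ribosome has a small subunit, which reads the mRNA, and a large subunit, which joins the amino acids. Each holds ribosomal RNA and one copy of most of its proteins, so cells make these proteins in near equal numbers. The mRNAs of ribosomal proteins start with a cytosine followed by a run of pyrimidines, the terminal oligopyrimidine tract, through which the kinase complex mTORC1 and the RNA-binding protein Larp1 set their translation and stability in response to nutrients and growth factors. In neurons, ribosomal protein mRNAs are among the most abundant mRNAs of the cell body and are also carried into dendrites and axons.

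Start sites are shown first, because the tract at the start of the mRNA is a sequence that many of these genes share. RefSeq promoter windows of build GRCm38.p6 were matched by symbol for 69 of the 91 genes. In the 30 bases around the annotated start, printed 5′ to 3′ on the transcribed strand, capitals mark the longest run of a C followed by at least 4 pyrimidines. The first 15 printed bases lie before the annotated start, and in Rps15a the whole run lies among them. Rpl22, which is not printed, has a window with a run of 5 bases and a window with no such run. The small subunit gene Rps6 (chr4:86857353-86857382, minus strand), Rps10 (chr17:27635230-27635259, minus strand), Rps15a (chr7:118116133-118116162, minus strand), the large subunit genes Rpl35 (chr2:39005117-39005146, minus strand), Rpl28 (chr7:4792950-4792979, plus strand) and Rpl38 (chr11:114668565-114668594, plus strand), and Rps19bp1 (chr15:80264292-80264321, minus strand), which has no such run, read as follows.
Rps6: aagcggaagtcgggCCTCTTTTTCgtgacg
Rps10: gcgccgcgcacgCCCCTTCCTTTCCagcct
Rps15a: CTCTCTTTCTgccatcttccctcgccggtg
Rpl35: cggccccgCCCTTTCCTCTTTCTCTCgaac
Rpl28: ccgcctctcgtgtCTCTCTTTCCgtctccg
Rpl38: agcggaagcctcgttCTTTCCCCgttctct
Rps19bp1: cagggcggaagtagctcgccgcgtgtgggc

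A C followed by at least 6 pyrimidines on the transcribed strand, between 20 bases before and 30 bases after the start, was present in 42 of the 69 genes (60.9%), in 59.5% of 42 large subunit and 65.4% of 26 small subunit genes, against 26.5% of all 12056 tested genes with a promoter entry. The run CTTTCC, which can lie inside such a tract, stood between 20 bases before and 50 after the start in 30.4% of the 69 genes and in 3.75% of all tested genes. It was in 40.5% of the large subunit and 15.4% of the small subunit genes. Another 3 motifs were searched on both strands of the whole 300 bases. CCGGAAG was in 37.7% of the 69 genes and 17.5% of all tested genes, TCGCGAGA in 15.9% and 2.16%, and AAGATGGC in 8.70% and 4.65%. The motifs were picked with these sequences in view, and a match is a string of letters and not a binding site. The tested members with the tract had a median log2 fold between the diets of -0.27 (39 genes), and those without it -0.23 (27 genes).

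Total estimated counts per library were 17789153 to 18941262 under high fat diet and 17451111 to 19562368 under chow. High fat 1 and chow 1 stood apart in the ribosomal protein genes, in opposite directions, and in other gene groups as described below. The tissue label was checked against defining markers, all of which had counts in every library. The central amygdala markers (7 genes, among them Prkcd, Sst, Crh and Penk) summed to 373 to 887 CPM (counts scaled to library size with edgeR's TMM factors) under high fat diet and 422 to 1494 CPM under chow. Markers of excitatory pallial neurons (6 genes, among them Slc17a7), which the central amygdala should hold in small amounts, summed to 944 to 2739 CPM under high fat diet and 178 to 1928 CPM under chow.

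Levels between genes were compared on the authors' mean TPM of each diet group, a unit corrected for transcript length, which carry no SD. The members together made up 5.89% of all TPM under high fat diet and 6.77% under chow. Most genes of both subunits lay close together: among plain names, 38 of 46 large subunit genes were within a factor of 2 of their median of 683 TPM under high fat diet, as were 38 under chow around a median of 781 TPM. For the small subunit, 26 of 31 genes were within a factor of 2 of 719 TPM under high fat diet and 27 of 31 within a factor of 2 of 808 TPM under chow. The deposited mean TPM was lower under high fat diet than under chow in 88 of the 91 genes.

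The highest level in the large subunit was that of Rplp1, a protein of the stalk that recruits elongation factors, at 2299 TPM under high fat diet and 2747 TPM under chow. Rpl41, the shortest ribosomal protein, followed with 1731 TPM under high fat diet and 2020.03 TPM under chow, and then Rpl23a, which lines the exit of the peptide tunnel, with 1403 TPM under high fat diet and 1661 TPM under chow. In the small subunit Rps15 led, at 1580.5 TPM under high fat diet and 1916 TPM under chow, before Rps27, a zinc finger protein, at 1235 TPM under high fat diet and 1481 TPM under chow, and Rps29, another zinc-binding protein, at 1149.8 TPM under high fat diet and 1327 TPM under chow. These orders of neighbours rest on group means without a spread, so whether neighbours differ was not tested. The lowest plain names were Rpl22 in the large subunit, an RNA-binding protein, with 112 TPM under high fat diet and 111 TPM under chow, and Rps6 in the small subunit, with 24.96 TPM under high fat diet and 31.8 TPM under chow. The low Rps6 value is set against its copy below, and the Rpl22 value against its paralog and counts.

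**Figure D1:**
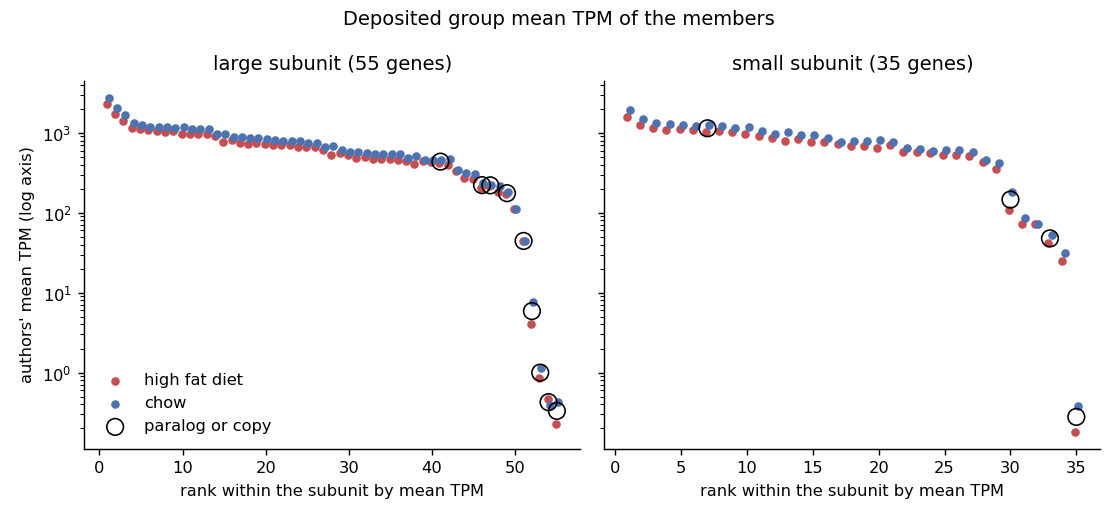
Authors' mean TPM (log axis) of each large subunit gene (left panel) and small subunit gene (right panel), ordered by the mean of both diets, with one point for the high fat diet mean and one for the chow mean; circles mark paralogs and copies. Most genes lie on a plateau, chow points lie above high fat points in nearly all genes, and the lower tail holds paralogs and copies together with Rpl22 and Rps6; Rps19bp1 is not plotted.

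No ribosomal protein gene passed the threshold between the diets. In edgeR's quasi-likelihood test on all 15186 genes with enough counts, 88 of the 91 members were tested, and 0 had a Benjamini-Hochberg adjusted p under 0.05; the share called among all genes was 0% (0 genes). DESeq2 and limma-voom also called 0 genes. At an unadjusted p under 0.05 the test gave 0 members in either direction, against 4.27% of all genes (2.63% lower under high fat diet and 1.65% higher); DESeq2 gave 990 genes and limma-voom 652 genes, none of them a member. The smallest adjusted p of any gene was 0.753, and the smallest unadjusted p of any member was 0.0845, for Rpl23. The 3 genes that failed the filter on low counts were Rpl39l, Rpl32l and Rps23rg1, each under 0.5 CPM in all 8 libraries.

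The direction was nearly the same in all members. The log2 fold of high fat diet over chow was below 0 in 87 of 88 tested members, where 51.8% of all tested genes were below 0, and the median was -0.27 in members and -0.012 over all tested genes. The exception was Rps19bp1, the gene that encodes no ribosomal protein, at 0.085 ± 0.19 (SE). The groups overlapped in every member: 0 of 88 had all high fat libraries on one side of all chow libraries, while 1.36% of all tested genes did (0.718% lower and 0.645% higher under high fat diet). The median SE of a member was 0.18. In bulk tissue, fewer cells of a type and less RNA per cell cannot be told apart.

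Large and small subunit genes had like folds. The median log2 fold was -0.26 for 53 large subunit genes (quartiles -0.30 and -0.20) and -0.27 for 34 small subunit genes (quartiles -0.35 and -0.23), a difference of 0.0094. Every tested gene of both subunits had a fold below 0. Among plain names the medians were -0.26 for 46 large subunit genes and -0.27 for 31 small subunit genes. Per library, the mean log2 CPM of large subunit genes minus that of small subunit genes, each centred over the 8 libraries, was -0.00071, 0.024, -0.011 and 0.021 under high fat diet, and -0.084, 0.081, -0.0018 and -0.027 under chow. This difference between the subunits spanned 0.17 over the 8 libraries, while the large subunit mean itself spanned 0.94, so the subunits moved together from library to library.

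**Figure D2:**
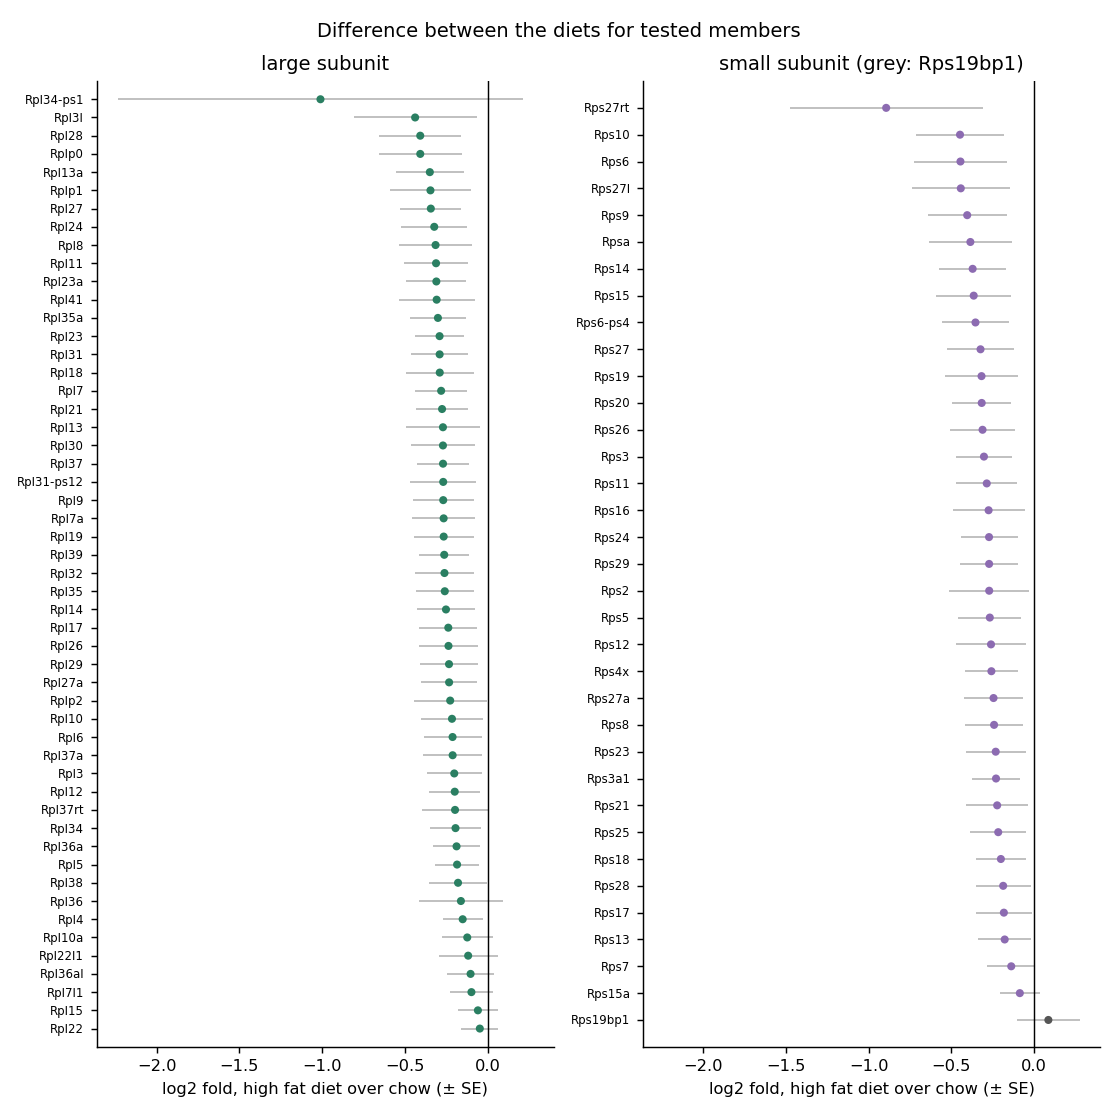
Log2 fold of high fat diet over chow (horizontal axis, bars ± SE) of tested large subunit genes (left panel; 1 gene is not shown) and of each tested small subunit gene and Rps19bp1 (right panel). All points of both subunits shown lie left of 0, Rps19bp1 lies right of it, and many bars end near 0.

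Rpl23 and Rpl27, both large subunit proteins, are shown in every library. Rpl23 (gene ID 65019, chr11:97777527-97782437 on GRCm38, minus strand), which lies where the subunits meet and can bind the p53 regulator Mdm2, had 60.4, 74.3, 66.8 and 85.5 CPM under high fat diet, and 102, 72.8, 87.5 and 88.7 CPM under chow. High fat 1 was the lowest library and chow 1 the highest, and the groups overlapped through chow 2, which was below high fat 2 and 8. The means were 71.7 ± 10.8 CPM under high fat diet and 87.8 ± 12.04 CPM under chow (SD over the 4 libraries of each diet, n = 4), and the log2 fold was -0.29 ± 0.15 (SE; edgeR adjusted p = 0.753). Rpl27 (gene ID 19942, chr11:101442298-101445529, plus strand) had 89.7, 111, 101.5 and 115 CPM under high fat diet, and 179.9, 101, 121.5 and 127 CPM under chow. Chow 1 stood alone above the other 7 libraries, which ran together between 89.7 and 127 CPM. Its log2 fold was -0.34 ± 0.18 (SE; edgeR adjusted p = 0.753).

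In the stalk proteins chow 1 stood far above the other libraries. Rplp0, the base of the stalk, had 193, 224, 201 and 216 CPM under high fat diet, and 449.8, 197, 229.5 and 229.96 CPM under chow. Chow 1 lay far above every other library, and the other chow libraries lay within or just above the high fat range. Its log2 fold of -0.41 ± 0.25 (SE) became -0.076 without chow 1. Rplp1 had a fold of -0.35 ± 0.25 (SE) with all libraries and -0.078 without chow 1. Rplp2, the partner of Rplp1 in the stalk, had 87.8, 97.8, 93.2 and 104 CPM under high fat diet and 169.8, 82.3, 91.2 and 105 CPM under chow; its fold of -0.23 ± 0.22 (SE) turned to 0.038 without chow 1.

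Rpl5 and Rpl11 bind the smallest ribosomal RNA of the large subunit and, when free, inhibit Mdm2. Rpl5 had 197, 244, 237 and 266 CPM under high fat diet, and 280.2, 232, 266 and 296 CPM under chow. Here high fat 1 was the lowest library and chow 8 the highest, and chow 1 did not stand apart. The log2 folds were -0.19 ± 0.13 (SE) for Rpl5 and -0.31 ± 0.19 (SE) for Rpl11. Without high fat 1 they were -0.11 for Rpl5 and -0.17 for Rpl11.

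Among the other large subunit genes, Rpl7 had a log2 fold of -0.28 ± 0.16 (SE). Rpl3 and Rpl10, which sit near the site where peptide bonds are made, had folds of -0.20 ± 0.17 and -0.22 ± 0.19 (SE). The largest p-values belonged to Rpl22 and Rpl15. Rpl22 had 98.3, 91.7, 88.2 and 91.4 CPM under high fat diet and 109, 85.1, 97.4 and 90.9 CPM under chow, with a log2 fold of -0.049 ± 0.11 (SE). It was one of 2 members in which high fat 1 was not below the mean of the other high fat libraries. Rpl15 had a log2 fold of -0.060 ± 0.12 (SE), which became 0.012 without high fat 1.

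In the small subunit, Rps14, Rps3 and Rps20 had the smallest p among plain names. Rps3, which lines the channel where the mRNA enters and also acts in DNA repair, had 206, 252, 258 and 288 CPM under high fat diet, and 379, 242, 295 and 323 CPM under chow. Chow 2 lay below 3 of the 4 high fat libraries, and the other chow libraries lay above all of them. The log2 folds were -0.30 ± 0.17 for Rps3, -0.37 ± 0.20 for Rps14 and -0.32 ± 0.18 (SE) for Rps20, each with an edgeR adjusted p of 0.753. Rpsa, which is also the precursor of a laminin receptor, had 445, 533, 536 and 648 CPM under high fat diet, and 1086, 473, 596 and 671 CPM under chow. Without chow 1 its log2 fold was -0.11, against -0.39 ± 0.25 (SE) with all libraries. Rps27a, which is made as a fusion with ubiquitin, had a log2 fold of -0.25 ± 0.18 (SE), and the X-linked Rps4x one of -0.26 ± 0.16 (SE). At the other end, Rps15a had -0.087 ± 0.12 (SE) and Rps7 -0.14 ± 0.14 (SE). Rps7 had 196 CPM in high fat 1 and 268 to 279 CPM in the other high fat libraries, against 254 to 301 CPM under chow.

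The shared pattern was a pattern of libraries. Chow 1 was the highest of the 8 libraries in 79 of 88 tested members and high fat 1 the lowest in 81. The members took 1.23%, 1.62%, 1.63% and 1.87% of all counts under high fat diet, and 2.46%, 1.51%, 1.74% and 2.004% under chow, a difference of means of -0.34 percentage points. Chow 1 had the largest share and high fat 1 the smallest, and the other 6 libraries ran from 1.51% to 2.004% with the diets mixed: chow 2 was the lowest of them and chow 8 the highest. Relative to the other libraries of its diet, chow 1 was higher by a median of 0.42 log2 CPM in large and 0.51 in small subunit genes, and high fat 1 differed by -0.40 in large and -0.43 in small subunit genes. Over all tested genes the same medians were 0.021 for chow 1 and -0.013 for high fat 1.

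**Figure D3:**
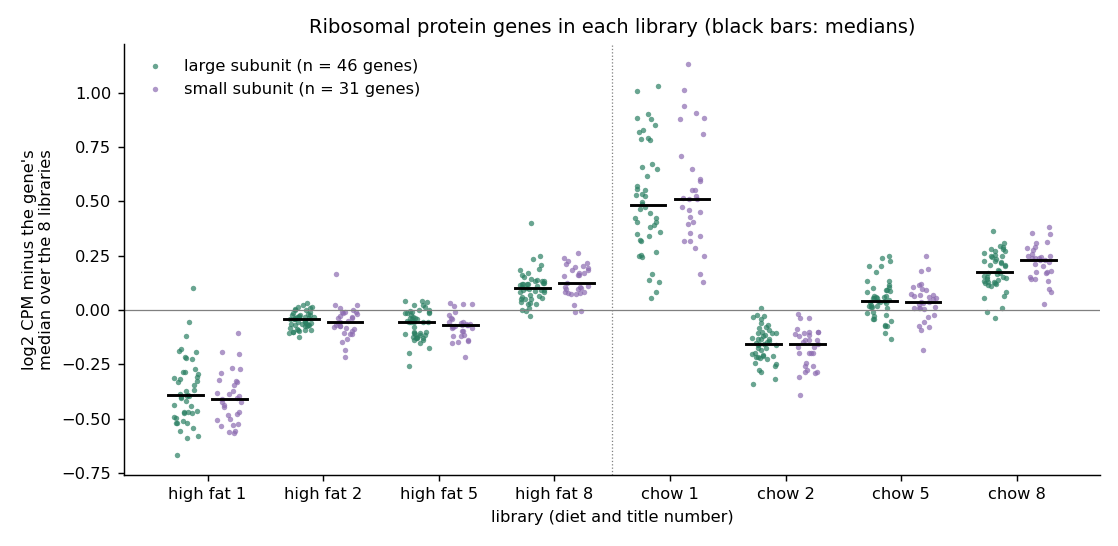
Log2 CPM of each plain-named ribosomal protein gene minus its own median over the 8 libraries (vertical axis), for each library, with large and small subunit genes side by side; black bars are medians. High fat 1 lies lowest and chow 1 highest, the other 6 libraries lie between them with the diets mixed, and the subunits have like medians within each library.

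The difference between the diets was smaller without these 2 libraries. They were picked as the highest and lowest in these same genes, so leaving them out shrinks the difference by construction. Without chow 1 the median log2 fold was -0.12 in large and -0.13 in small subunit genes, and without high fat 1 it was -0.16 in large and -0.18 in small subunit genes. With both left out, 3 libraries per diet gave -0.041 in large and -0.027 in small subunit genes, and 64 of 88 folds were below 0. The median over all tested genes was then -0.0056. In that comparison 1 member had an unadjusted p under 0.05, Rps19bp1 (log2 fold 0.28, edgeR adjusted p = 0.867), against 0.859% of all genes in the same direction and 1.44% in the other. Leaving out chow 2, the chow library with the lowest ribosomal protein levels, moved the medians the other way, to -0.35 in large and -0.38 in small subunit genes. Chow 2 also stood apart in markers. Its excitatory pallial sum of 1928 CPM lay inside the high fat range of 944 to 2739 CPM and above the 178 to 412 CPM of the other chow libraries, its oligodendrocyte sum was 2716 CPM against 11694 to 16766 CPM in the other chow libraries, and its striatal sum was 145 CPM against 622 to 1801 CPM. The part of these markers in what follows was not tested. Without chow 2, 22 members, 11 of each subunit, had an unadjusted p under 0.05, all lower under high fat diet and among them Rpl23, Rpl27, Rps3 and Rps6-ps4, where 10.6% of all genes were lower and 8.87% higher at that threshold; 0 members and 116 genes had an adjusted p under 0.05 (0.758% of all genes). Without high fat 8, Rpl23 alone had an unadjusted p under 0.05 (log2 fold -0.39, edgeR adjusted p = 0.678), where 3.55% of all genes were lower and 2.25% higher.

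Properties of the transcripts were set beside the position of these libraries. Of the 88 tested members, 69 have a representative GENCODE transcript under 1000 bases. The 978 other tested genes with a transcript under 1000 bases had a median log2 fold of -0.15, with 73.8% of folds below 0. Their median level in each library, relative to the median of all genes, was -0.16, 0.0085, -0.037 and 0.072 on the log2 scale under high fat diet, and 0.42, -0.077, 0.021 and 0.014 under chow. The members had -0.40, -0.047, -0.064 and 0.11 under high fat diet, and 0.49, -0.16, 0.039 and 0.20 under chow on the same scale. Chow 1 was thus high and high fat 1 low in short transcripts that encode no ribosomal protein, with high fat 1 less low than in the members. Across the 88 tested members, Spearman's rho of transcript length with the difference of chow 1 from the other chow libraries was -0.0022. With the difference of high fat 1 from the other high fat libraries it was 0.34, and with the fold between the diets -0.061. The part of transcript length in the difference between the diets was not tested.

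The excess of chow 1 went with GC content in the members and across the other tested genes. Among those other genes its median was -0.54 log2 CPM in the GC-poorest 4890 genes, 0.076 in the middle 4892 and 0.40 in the GC-richest 4890. Within the members, Spearman's rho across 88 genes was 0.48 between the GC content of the transcript and the excess of chow 1 over the other chow libraries (0.57 in large and 0.32 in small subunit genes). This is a description across genes that share the same libraries. The median excess was 0.36 log2 CPM in the GC-poorest 29 members, 0.51 in the middle 30 and 0.75 in the GC-richest 29. Examples at the GC-rich end are Rpl28 (60.4% GC), with 289 CPM in chow 1 and 123 to 157 CPM in the other chow libraries, and Rps10 (56.4% GC), with 353 CPM in chow 1 and 159 to 185 CPM in the others. Rpl37 (48.3% GC) and Rpl38 (56.2% GC), by contrast, were not higher in chow 1 than the mean of the other chow libraries. For Rpl37 this holds for its own row only, since its near-identical copy Rpl37rt took 62.5% of the pair's counts in chow 1. The summed counts of that pair, not scaled to library size, were 4996 in chow 1 and 3177, 3705 and 4196 in chow 2, 5 and 8. The shortfall of high fat 1 showed rho = 0.12 with GC content, and the fold between the diets rho = -0.18.

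**Figure D4:**
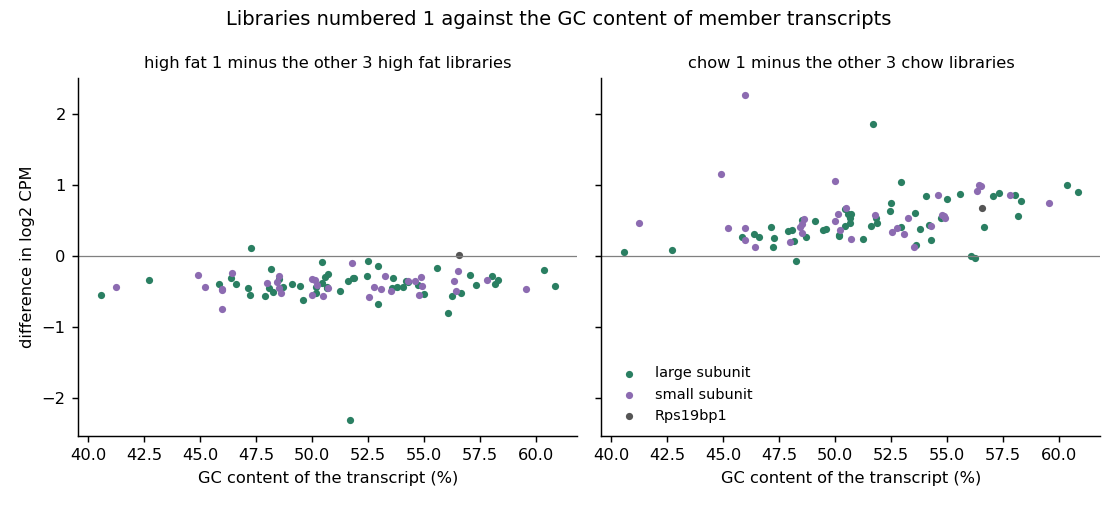
Difference in log2 CPM between high fat 1 and the mean of the other 3 high fat libraries (left panel) and between chow 1 and the mean of the other 3 chow libraries (right panel), against the GC content of each tested member's transcript. In the right panel points climb with GC content (rho = 0.48), and in the left panel they do not (rho = 0.12).

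Markers of other cell types also differed between libraries, some of them with chow 1 or high fat 1 at an end and some not. Choroid plexus markers (7 genes, among them Ttr and Folr1) summed to 447, 3132, 215 and 1308 CPM under high fat diet, and 6630.2, 1481, 92.5 and 240.0 CPM under chow, highest in chow 1 and lowest in chow 5. Ependymal markers (5 genes) summed to 12.5 to 36.2 CPM under high fat diet, with 24.6 CPM in high fat 1, and to 194 CPM in chow 1 against 22.5 to 37.0 CPM in the other chow libraries. Blood markers (4 genes, 3 of them globins) summed to 165 CPM in high fat 1 and 351 to 661 CPM in the other high fat libraries, and to 2195 CPM in chow 1 and 288 to 685 CPM in the other chow libraries. Striatal markers (5 genes, among them Drd1 and Ppp1r1b) summed to 83.6 CPM in high fat 1, the lowest of the 8 libraries, and to 1801 CPM in chow 1, the highest. Oligodendrocyte markers summed to 3501 to 7677 CPM under high fat diet and 2716 to 16766 CPM under chow, lowest in chow 2 and highest in chow 5. Microglial markers (5 genes) summed to 179.0 to 236 CPM under high fat diet, and 180 to 352 CPM under chow, highest in chow 1. Astrocyte markers (5 genes) summed to 2185 to 3221 CPM under high fat diet and 1685 to 2734 CPM under chow. The sum was highest in high fat 1 and lowest in chow 1. Most of it was Slc1a2, with a mean of 1978 CPM under high fat diet and 1535 CPM under chow. Of the astrocyte folds, 2 were below 0 and 3 above. With each gene given equal weight, the mean log2 level relative to the gene's median library was 0.017 under high fat diet and 0.014 under chow. Endothelial markers (4 genes) were highest in high fat 1, at 158 CPM, then in chow 1, at 133 CPM, and lay between 86.1 and 101 CPM in the other 6 libraries. No marker of these lists was at 0 in any library. The part of these cell types in the ribosomal protein levels was not tested.

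Tissue-restricted paralogs of ribosomal proteins were low next to their parents. Rpl3l, the paralog of Rpl3 in heart and skeletal muscle, took 0.0858% to 0.143% of the counts of the pair under high fat diet and 0.0927% to 0.258% under chow. Rpl39l, the paralog of Rpl39 in testis, took 0.129% to 0.374% under high fat diet and 0.0912% to 0.360% under chow. Rpl22l1 and Rpl36al are widely expressed. Counts and TPM put the members of the first pair in opposite orders: Rpl22l1 took 17.9% to 29.3% of the counts of the pair with Rpl22 under high fat diet and 22.7% to 28.6% under chow. On the authors' mean TPM, Rpl22l1 held 60.5% of the pair with Rpl22 under high fat diet and 61.9% under chow. The representative GENCODE transcript of Rpl22l1 is the longer one, at 552 bases against 474 for Rpl22. The lengths in the authors' index are not given, and the reason for the opposite orders was not tested. By mean TPM, Rpl36al held 32.7% of the pair with Rpl36a under high fat diet and 31.4% under chow. The log2 ratio of counts of paralog to parent was tested in 5 pairs by a two-sided exact permutation test over the 8 libraries, whose smallest possible p is 0.0286; a single pair that differed could reach 0.143 at the lowest after adjustment over the 5 pairs, so the test could not pass one pair alone. Its mean was -1.68 ± 0.39 under high fat diet and -1.59 ± 0.21 under chow for Rpl22l1 over Rpl22 (SD over the 4 libraries of each diet, n = 4; exact p = 0.8, adjusted over the 5 pairs 0.943). For Rpl7l1 over Rpl7, a paralog that works in ribosome assembly, it was -2.39 ± 0.18 under high fat diet and -2.59 ± 0.23 under chow (SD over the 4 libraries of each diet, n = 4; exact p = 0.229, adjusted 0.857). For Rpl36al over Rpl36a it was -0.95 ± 0.11 under high fat diet and -1.03 ± 0.093 under chow (SD over the 4 libraries of each diet, n = 4; exact p = 0.343, adjusted 0.857). The pairs Rpl3l with Rpl3 and Rps27l with Rps27 gave exact p = 0.657 and 0.943 (both 0.943 adjusted).

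These paralogs can be told apart by their sequence. In coding stretches of 60 bases, printed 5′ to 3′ from GENCODE transcripts on GRCm38, capitals mark bases that differ between the members of a pair: 24 between Rpl22 and Rpl22l1, 17 between Rps27 and Rps27l and 12 between Rpl36a and Rpl36al. Each stretch was picked as the aligned coding stretch with the most differing bases, so it overstates the difference of the pair. Over all aligned bases, identity was 74.6% for Rpl22l1, 79.0% for Rps27l and 87.8% for Rpl36al with their parents.
Rpl22: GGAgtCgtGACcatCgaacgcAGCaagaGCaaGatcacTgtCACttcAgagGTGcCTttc
Rpl22l1: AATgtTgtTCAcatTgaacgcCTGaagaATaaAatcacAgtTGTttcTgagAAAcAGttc
Rps27: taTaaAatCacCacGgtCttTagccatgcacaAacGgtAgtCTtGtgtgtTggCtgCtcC
Rps27l: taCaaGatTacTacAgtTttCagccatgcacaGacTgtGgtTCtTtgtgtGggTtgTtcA
Rpl36a: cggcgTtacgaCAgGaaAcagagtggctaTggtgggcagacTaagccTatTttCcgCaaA
Rpl36al: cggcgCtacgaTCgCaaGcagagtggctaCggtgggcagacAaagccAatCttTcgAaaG

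Retrocopies are closer to their parents. The coding end of Rps6 carries the serines that S6 kinases phosphorylate. The same stretch of Rps6-ps4 (gene ID 105244208, chr2:75191073-75191822 on GRCm38, minus strand), annotated by GENCODE as a processed pseudogene, is identical to it. A stretch from the middle of the coding part of Rps27 is also identical to its match in Rps27rt. Rpl31 and Rpl31-ps12 differ at the 2 capitals shown, in a stretch again picked for the most differing bases.
Rps6: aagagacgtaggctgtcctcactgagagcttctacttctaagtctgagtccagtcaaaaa
Rps6-ps4: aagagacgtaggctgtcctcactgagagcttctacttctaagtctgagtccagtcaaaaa
Rps27: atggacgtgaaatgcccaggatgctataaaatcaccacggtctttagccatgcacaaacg
Rps27rt: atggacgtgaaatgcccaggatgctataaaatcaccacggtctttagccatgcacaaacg
Rpl31: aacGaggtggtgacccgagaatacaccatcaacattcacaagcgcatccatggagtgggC
Rpl31-ps12: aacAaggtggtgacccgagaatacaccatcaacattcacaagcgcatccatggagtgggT

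Rps6-ps4 matches Rps6 at all 750 of its bases, so every 50-base read from it also matches Rps6. Yet it received 95.9%, 95.3%, 96.1% and 96.3% of the counts of the pair under high fat diet, and 94.7%, 95.7%, 96.9% and 95.8% under chow. Rps6 itself had 10.97, 14.8, 12.6 and 13.9 CPM under high fat diet, and 29.1, 12.4, 12.6 and 17.2 CPM under chow, where Rps6-ps4 had 256, 305, 307 and 363 CPM under high fat diet, and 521, 274, 390.2 and 389 CPM under chow. Neither value can be read as the level of its own gene. The pair together stood at 1055 TPM under high fat diet and 1279.9 TPM under chow, inside the range of the other small subunit genes, and its summed counts gave a log2 fold of -0.36 ± 0.20 (SE; edgeR adjusted p = 0.753).

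The other copies took smaller or more variable shares. Rps27rt is identical to Rps27 over 341 aligned bases and took 7.55%, 11.3%, 8.40% and 8.07% of the counts of the pair under high fat diet, and 23.7%, 6.84%, 5.20% and 9.66% under chow, with chow 1 far above the other libraries. Its log2 fold of -0.89 ± 0.58 (SE), the lowest of the small subunit, is therefore uncertain, and the summed pair gave -0.38 ± 0.23 (SE). Rpl37rt differs from Rpl37 at 1 of 344 aligned bases and took 53.2% to 56.8% under high fat diet, and 62.5% in chow 1 and 49.3% to 51.5% in the other chow libraries. Rpl31-ps12 differs from Rpl31 at 4 of 375 aligned bases and took 14.3% to 17.5% under high fat diet and 14.8% to 16.99% under chow. Rpl34-ps1 took at most 1.503% of its pair under high fat diet and 1.79% under chow. With every copy added to its parent, the medians were -0.26 for large and -0.27 for small subunit genes.

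**Figure D5:**
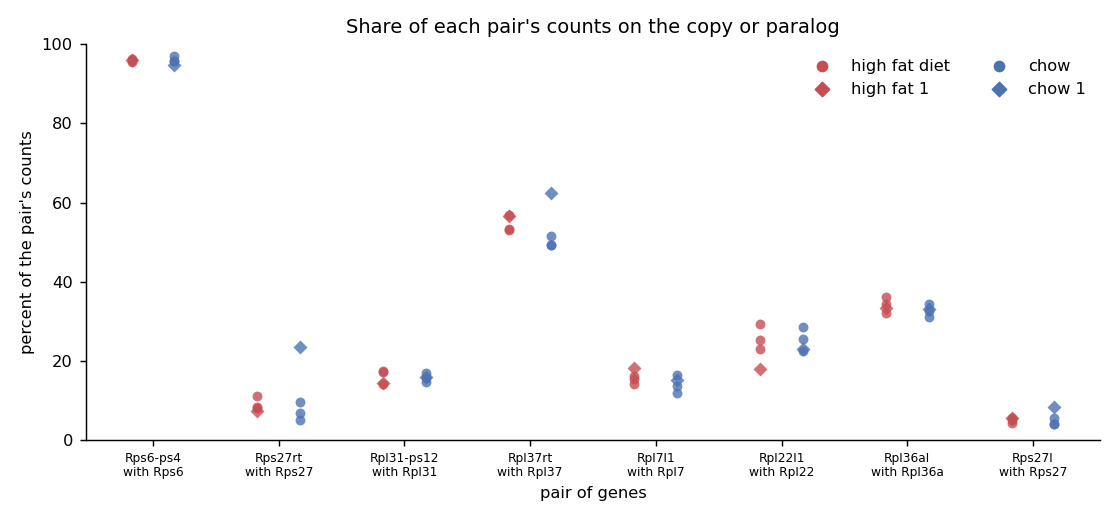
Percent of the summed counts of a pair that lie on the copy or paralog (vertical axis), for each of 8 pairs, with high fat libraries left of chow libraries and libraries numbered 1 as diamonds. Rps6-ps4 holds over 94% of its pair in every library, and chow 1 stands above the other chow libraries for Rps27rt, Rpl37rt and Rps27l.

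Sharing reaches further than these rows. At the median member 60.6% of all 50-base stretches of the transcript also occur in another GENCODE gene, and 56 of 90 members with a transcript exceed 50%. Counting only genes that have a row in the deposited table, 56 of 90 share none and 11 share over 50%. The sources used here do not give the transcripts in the authors' index. The median log2 fold was -0.26 in tested members with over 50% shared with any GENCODE gene and -0.27 in the others.

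The rest of the pathway was read from lists of genes. Of ribosomal components with other symbols, Fau, made as a fusion with a ubiquitin-like protein, had a log2 fold of -0.18 ± 0.19 (SE) and Rack1, a scaffold on the small subunit, one of -0.26 ± 0.21 (SE). Of 16 elongation factors and other genes with terminal oligopyrimidine tracts, 12 were below 0 and 4 above (median -0.16, and 0.0014 without the libraries numbered 1), among them Eef1a1, which brings tRNA to the ribosome, at -0.16 ± 0.17 and Eef2, which moves it along the mRNA, at -0.30 ± 0.19 (SE). The 35 ribosome biogenesis genes lay the other way, with 24 above 0 and 11 below (median 0.067, and 0.030 without the libraries numbered 1), as did the 12 genes of RNA polymerase I with 8 above and 4 below (median 0.053, and 0.00017 without the libraries numbered 1). In biogenesis, Ncl had -0.025 ± 0.20, Fbl -0.16 ± 0.18 and Heatr1 0.35 ± 0.19 (SE). In none of these lists did a gene reach an adjusted p under 0.05, or an unadjusted p under 0.05.

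Of 13 genes of mTORC1 and tract control, 9 were above 0 and 4 below (median 0.033). Deptor, a subunit that inhibits mTOR, was the one with an unadjusted p under 0.05, at 20.8 ± 2.81 CPM under high fat diet and 33.7 ± 6.87 CPM under chow (SD over the 4 libraries of each diet, n = 4; log2 fold -0.70 ± 0.18, SE; edgeR unadjusted p = 0.0039, adjusted p = 0.753). Over all tested genes, 2.63% were lower and 1.65% higher under high fat diet at an unadjusted p under 0.05 in edgeR's test. Mtor had a log2 fold of 0.033 ± 0.11 (SE) and Larp1 0.15 ± 0.11 (SE). The 10 S6 kinase genes, which the symbol rule leaves out, split evenly, 5 above and 5 below 0, with Rps6kb1 at 0.21 ± 0.35 (SE). Rps6kb1 had 58.8 to 67.8 CPM under high fat diet, 18.4 CPM in chow 1 and 62.5 to 69.7 CPM in the other chow libraries. Mitochondrial ribosomal proteins, encoded by 78 other genes, had 60 folds below 0 and 18 above (median -0.081, and 0.046 without the libraries numbered 1). Of 79 tested oxidative phosphorylation genes 76 were below 0 (median -0.18, and 0.013 without the libraries numbered 1), so folds of this sign were not limited to the cytosolic ribosome. None of these lists had a gene with an adjusted p under 0.05.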

How the data were processed

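RNA of 8 libraries (4 high fat diet, 4 chow) was read from 1 table. The authors deposited expected counts per gene and library, estimates of which 35.2% were not whole within 1e-06, and, per the file headers, group means in FPKM and TPM. The submitters' processing notes name Bowtie2 2.2.5, RSEM 1.2.8 and build mm10. For the annotation and strandedness, the sources used here give nothing, so reads of a gene cannot be told apart from those of an overlapping or antisense partner. The deposited FPKM means were not used. The deposited TPM means were printed as they stand.

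Expected counts were rounded and fitted for all genes with edgeR 4.0.16 (R 4.3.3): filterByExpr, TMM factors, quasi-likelihood test, two-sided, Benjamini-Hochberg adjustment over all tested genes, threshold 0.05. Folds are log2, high fat diet over chow, and CPM are TMM-scaled. DESeq2 1.42.0 and limma-voom 3.58.1 were alternatives. The test was tried on simulated counts first. Transcript lengths, GC content and shared 50-base stretches (exact, both strands) come from GENCODE M21 (GRCm38), and promoters from RefSeq (GRCm38.p6). Replicate numbers were not used to pair libraries.

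Genes named are Rpl23 and Rpl27; per subunit the 4 smallest and 2 largest p and the 3 highest and lowest mean TPM; paralogs and their parents; stalk and other role proteins; members with an opposite sign; and members that failed the filter. Copies, Rpl28, Rps10, Rpl37 and Rpl38 were added after their values were seen. The members and lists were chosen with earlier results of these data known. Results of 2 genes that these rules and lists name are not reported here.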

Additional observations from a re-analysis of the deposited data

Results flagged for a closer look

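In 78 checks of a named gene or summed level within 1 diet (4 libraries each), 5 had a library whose gap to its nearest neighbour passed Dixon's critical value, where chance gives about 1 in 20. Chow 1 stood apart in 3 of them. Rplp0 had 449.8 CPM in chow 1 and 197 to 229.96 CPM in the other chow libraries. Rps19bp1 had 16.8 CPM in chow 1 and 9.95 to 10.9 CPM in the others. Rps27l had 18.2 CPM in chow 1 and 7.23 to 8.73 CPM in the others. Rps27 had 122 CPM in chow 2, below 190.0 to 204 CPM in the other chow libraries. Rps7 had 196 CPM in high fat 1, below 268 to 279 CPM in the other high fat libraries.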

How the results depend on the processing

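No member had an adjusted p under 0.05 in any alternative, and the medians of both subunits stayed below 0 in all of them. Leaving out 1 library at a time gave medians of -0.35 to -0.12 for the large and -0.38 to -0.13 for the small subunit, a difference between the subunits of 0.0067 to 0.042, a difference in the share of counts of -0.48 to -0.17 percentage points, 0 to 22 members at an unadjusted p under 0.05, and 0 to 116 genes with an adjusted p under 0.05. The 116 genes and 22 members came without chow 2; without high fat 8 the 1 member was Rpl23 (log2 fold -0.39) and without chow 1 Rps19bp1 (0.28), where 3% of all genes were lower and 1.87% higher. With both libraries numbered 1 left out (chosen after seeing the data), 1 member, Rps19bp1, was under 0.05, and the share of counts differed by -0.046 percentage points. With the title number as a replicate block, the medians were -0.25 for the large and -0.26 for the small subunit with 0 calls; the labels do not say that a number marks a shared source, and deviations of same-numbered libraries correlated at 0.013, -0.043, 0.035 and 0.39. RLE and upper-quartile factors, other filters, DESeq2, limma-voom, an adjusted threshold of 0.1 and copies added to parents gave medians of -0.32 to -0.26 where one was computed, with 0 calls.

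Among 610 alternative fits of 36 named members, 14 changed sign, in 10 genes, none with an adjusted p under 0.05; the cause was not tested. Without high fat 1 these were Rpl15 (0.012, lowest -0.11 without high fat 8) and Rpl22l1 (0.0034, lowest -0.27 without high fat 8). Without chow 1 they were Rpl22 (0.014, lowest -0.099 without chow 2), Rpl7l1 (0.013, lowest -0.16 without chow 8) and Rplp2 (0.038, lowest -0.35). Without both they were Rpl10 (0.018), Rpl15 (0.046), Rpl22l1 (0.0098), Rpl36al (0.063), Rpl41 (0.047), Rpl7l1 (0.034), Rplp1 (0.013), Rplp2 (0.077) and Rps27l (0.0020). With 4 libraries per diet and a median SE of 0.18, folds of the size seen here lie near the error of a single gene.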
